A study of Mus musculus with 12 samples.

Results

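The genes described here are 10 mouse genes whose RNA was much higher in a T-cell leukemia after the transcription factor Ikaros was switched back on: Arap2, Cfap74, Gpr174, Gpr146, Ampd1, Cntnap1, Gng2, Pacsin1, Zfp831 and Abcb1a. They were picked by symbol because their counts climbed steeply in these same samples, so the size of the climb is given as a description and is not tested. The count table held 27179 genes, of which 13134 passed a filter on low counts, and all 10 genes were among those that passed. Ikaros, encoded by Ikzf1, is a zinc finger protein of the lymphoid lineage that binds DNA and recruits chromatin-remodelling complexes. It both represses and activates genes during T-cell development, and its loss is a recurrent event in T-cell acute lymphoblastic leukemia (T-ALL).

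The leukemia, ALL101, arose in a mouse that carried Vav-tTA and TRE-GFP-shIkaros. In this tet-off system the Vav promoter, active across blood cells, drives the tTA transactivator, which turns on a short hairpin RNA against Ikaros linked to GFP. Doxycycline (Dox) stops tTA, so the hairpin falls silent and the endogenous Ikzf1 gene is expressed again. RNA was sequenced from splenic leukemia cells of 3 untreated recipient mice and of 3 recipient mice that had received Dox for 3 days, and each RNA was sequenced in 2 runs.

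All 6 mice carried this 1 primary leukemia, whose cells hold both transgenes. The mice are therefore replicates of a treatment within 1 leukemia and not of independent leukemias. The labels give no age or strain. The untreated cells are labelled GFPhigh and the Dox cells GFPmid, so the gate and the treatment cannot be told apart, and no library came from Dox-treated leukemia lacking the hairpin. The library name of untreated mouse 3 does not carry the sorting wording of the others, although the shared protocol describes sorting for every sample. Summed over runs, the mice had between 29904744 and 44949303 counts, so a gene with 0 counts could lie at up to 0.0667 to 0.100 CPM, the count scaled by the library total after TMM normalization and expressed per 1e6. That limit, like the counting intervals below, covers counting error only.

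The targeted gene was checked first. Ikzf1 stood at 153, 149.7 and 159 CPM in untreated mice 1, 2 and 3 and at 1438, 1523 and 1495 CPM in Dox mice 1, 2 and 3. All 6 mice therefore went with their labels.

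Promoter sequences are shown for 3 of the genes. Only there did a RefSeq transcript start lie within 20 bases of the gene start in the GENCODE vM21 annotation, so that both annotations place the window. For Cfap74 this transcript start lies inside the longer RefSeq extent of the gene, which begins at 155392099. Each is the 250 bases before the RefSeq start on the GRCm38.p6 build, written 5′ to 3′ on the gene's own strand, with CpG dinucleotides in capitals. They lie at chr5:62766178-62766427 on the minus strand for Arap2, at chr4:155408940-155409189 on the plus strand for Cfap74 and at chr5:139377447-139377696 on the plus strand for Gpr146.
Arap2: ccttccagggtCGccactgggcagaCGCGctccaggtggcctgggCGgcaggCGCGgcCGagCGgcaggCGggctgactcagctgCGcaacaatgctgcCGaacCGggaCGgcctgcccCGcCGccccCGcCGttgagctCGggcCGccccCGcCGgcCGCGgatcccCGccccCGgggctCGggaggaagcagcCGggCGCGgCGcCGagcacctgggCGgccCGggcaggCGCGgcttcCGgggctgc
Cfap74: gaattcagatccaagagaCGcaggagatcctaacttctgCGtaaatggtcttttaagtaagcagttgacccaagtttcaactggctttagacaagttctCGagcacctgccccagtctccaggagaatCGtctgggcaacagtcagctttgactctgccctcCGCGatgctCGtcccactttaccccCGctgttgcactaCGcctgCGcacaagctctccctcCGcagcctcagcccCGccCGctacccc
Gpr146: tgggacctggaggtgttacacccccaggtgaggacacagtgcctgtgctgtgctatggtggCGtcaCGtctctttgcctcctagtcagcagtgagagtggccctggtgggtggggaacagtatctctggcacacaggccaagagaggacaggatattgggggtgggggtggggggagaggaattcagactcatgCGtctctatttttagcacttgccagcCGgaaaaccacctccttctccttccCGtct

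These windows differ in base composition. The Arap2 promoter held 36 CpG and was 80.8% G or C, the Cfap74 promoter held 13 CpG at 56.0%, and the Gpr146 promoter held 5 CpG at 57.6%. The median of all 32851 mouse promoters in the RefSeq table was 6 CpG and 52.4%. RefSeq entries were matched for 7 of the 10 genes, in 10 windows, and the fewest CpG, 0, were in the Abcb1a window. Ampd1, Cntnap1 and Zfp831 had no entry in that table.

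Short motifs were searched in the same 250 bases on both strands. TGGGAA, the form of the Ikaros site searched here, was in 21.6% of all promoters and in the windows of 0 of the 7 genes. Shorter forms of the Ikaros site were not searched. TGTGGT, the core bound by Runx factors, was in 14.05% of all promoters and in the Pacsin1 window. The E-box CAGCTG was in 4271 of the 32851 promoters and in windows of Arap2 and Gpr146. For Gpr146 it was not in the printed window but in one before a start 12207 bases from the GENCODE gene start. The Ets core CCGGAA was in 12.03% of all promoters and also in windows of Arap2 and Gpr146. A match or its absence describes only these letters in these windows, and the RefSeq starts of Abcb1a, Pacsin1, Gpr174 and Gng2 lay 92986, 29730, 28468 and 934 bases from the GENCODE gene starts.

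Across the transcriptome, edgeR's quasi-likelihood test with Benjamini-Hochberg adjustment called 3255 genes higher after Dox (24.8% of those tested) and 3316 lower (25.2%). For 30.2% of tested genes, every Dox mouse was above every untreated mouse. All 10 genes had such separated groups, which their selection fixes. Ranked by log2 fold change among genes with at least 5 CPM in the higher group, 9 of the 10 took places between 1 and 16, led by Arap2 and Cfap74. Gpr146 was in place 64, with a log2 fold change of 2.46. Just outside the lowest of the other 9, Abcb1a at 3.13, lay Gimap3 at 3.13 and Phf11b at 3.12, and genes not chosen from inside that range include Prf1, Tgfb3, Cd69 and Cd44. The range of places was computed after the genes were chosen. In sorted bulk cells, a change in the share of cells that express a gene and a change in RNA per cell cannot be told apart.

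Among the receptors, Gpr174 and Gpr146 encode G protein-coupled receptors. Gpr174 is a lymphocyte receptor for lysophosphatidylserine. Its gene (Entrez 213439) lies on the plus strand of chromosome X at 107255878 to 107296771. Gpr174 stood at 1.24, 0.964 and 2.73 CPM in untreated mice 1, 2 and 3, and at 31.0, 13.9 and 25.0 CPM in Dox mice 1, 2 and 3. Dox mouse 2 was the low one of its group, untreated mouse 3 the high one of its own, and the lowest Dox value was 5.09 times the highest untreated value. The mean went from 1.64 ± 0.949 to 23.3 ± 8.69 CPM (SD, n = 3), 14.2-fold, with a log2 fold change of 3.83 ± 0.49 (SE).

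Gpr146 is an orphan receptor best known from work on liver cholesterol metabolism. The gene (Entrez 80290) is on the plus strand of chromosome 5 at 139377697 to 139396415. Gpr146 counts gave 4.09, 3.40 and 4.26 CPM in the untreated mice and 21.1, 22.9 and 20.8 CPM in the Dox mice, in mouse order 1 to 3. Both groups were tight, and Gpr146 had the smallest log2 fold change of the 10. The mean moved from 3.92 ± 0.453 to 21.6 ± 1.15 CPM (SD, n = 3), 5.52-fold, with a log2 fold change of 2.46 ± 0.12 (SE). The coefficient of variation of Gpr146 was 11.6% in untreated and 5.34% in Dox mice.

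Downstream of such receptors, Gng2 encodes a gamma subunit of heterotrimeric G proteins, which pairs with a beta subunit to carry the signal and to anchor the complex at the membrane. The gene (Entrez 14702) is on the minus strand of chromosome 14 at 19872558 to 19977825. Gng2 was at 0.201, 0.994 and 2.13 CPM in untreated mice 1, 2 and 3 and at 15.1, 7.39 and 14.8 CPM in Dox mice 1, 2 and 3. The untreated mice spanned a 10.6-fold range, the widest of the 10 genes in either group. Untreated mouse 1 had 6 counts, whose exact 95% Poisson interval of 0.0738 to 0.438 CPM reached neither of the other untreated values. The group mean was 1.11 ± 0.969 CPM untreated and 12.4 ± 4.38 CPM with Dox (SD, n = 3), an 11.2-fold difference with a log2 fold change of 3.48 ± 0.71 (SE). The log2 fold change of Gng2 was 4.33 without untreated mouse 3 and 2.99 without untreated mouse 1.

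Arap2 encodes a GTPase-activating protein with an Arf GAP domain, which acts on Arf6 and takes part in focal adhesion and membrane traffic. The gene (Entrez 212285) spans chromosome 5 from 62602445 to 62766192 on the minus strand, and its CpG-rich promoter is printed above. Arap2 stood at 0.704, 0.482 and 1.73 CPM in the 3 untreated mice. In the Dox group, mouse 1 had 52.8 CPM whereas mice 2 and 3 had 13.7 and 12.5 CPM. A single mouse therefore lay far above the other two, and even the lowest Dox value was 7.23 times the highest untreated one. The mean was 0.972 ± 0.666 CPM untreated and 26.3 ± 22.9 CPM with Dox (SD, n = 3), a ratio of 27.1, and the log2 fold change was 4.76 ± 0.89 (SE). Arap2's log2 fold change was 3.76 without Dox mouse 1 and 5.46 without untreated mouse 3.

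Pacsin1 encodes an F-BAR protein, known mainly from neurons, that bends membranes and binds dynamin during endocytosis. The gene (Entrez 23969) lies on the plus strand of chromosome 17 at 27655591 to 27711118. Pacsin1 stood at 1.07, 0.663 and 0.432 CPM in untreated mice 1 to 3 and at 9.29, 5.37 and 7.52 CPM in Dox mice 1 to 3. It was the one gene of the 10 whose lowest untreated value was in mouse 3. The mean was 0.723 ± 0.325 and then 7.39 ± 1.96 CPM (SD, n = 3), 10.2-fold higher, with a log2 fold change of 3.35 ± 0.34 (SE).

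Abcb1a encodes a P-glycoprotein, an ATP-driven pump of the plasma membrane that exports many drugs and lipids. Its gene (Entrez 18671) spans chromosome 5 from 8567091 to 8748575 on the plus strand, next to its close copy Abcb1b. Abcb1a was at 0.369, 0.422 and 1.23 CPM in the untreated mice and at 5.03, 4.20 and 8.49 CPM in the Dox mice, in mouse order. Mouse 3 was the high one in each group, and the lowest Dox value exceeded the highest untreated value 3.41-fold, the smallest such ratio of the 10. The mean differed 8.76-fold, 0.674 ± 0.483 against 5.90 ± 2.28 CPM (SD, n = 3), with a log2 fold change of 3.13 ± 0.49 (SE). Abcb1a's log2 fold change was 3.88 without untreated mouse 3 and 2.78 without Dox mouse 3. How reads that fit both Abcb1 copies were counted is not given in the sources used here, so the split between the copies is uncertain.

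Ampd1 encodes the AMP deaminase typical of skeletal muscle, which converts AMP to IMP in the purine nucleotide cycle. The gene (Entrez 229665) is on the plus strand of chromosome 3 at 103073897 to 103099720. Ampd1 stood at 1.98, 1.96 and 2.26 CPM in the untreated mice and at 23.1, 36.1 and 20.6 CPM in the Dox mice. The untreated mice were close together, Dox mouse 2 was the high one of its group, and the gap between the groups was the widest of the 10 genes, 9.09-fold from the highest untreated to the lowest Dox value. The mean went from 2.07 ± 0.170 to 26.6 ± 8.35 CPM (SD, n = 3), 12.9-fold, with a log2 fold change of 3.69 ± 0.24 (SE).

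Cntnap1 encodes Caspr, an adhesion protein of the neurexin family that builds the paranodal junction between axon and myelin. The gene (Entrez 53321) lies at 101174617 to 101190724 on the plus strand of chromosome 11. Cntnap1 stood at 0.402, 0.361 and 1.16 CPM in the untreated mice and at 6.88, 6.46 and 10.8 CPM in the Dox mice. As with Abcb1a, mouse 3 was highest in both groups. The mean was 0.643 ± 0.452 against 8.06 ± 2.41 CPM (SD, n = 3), a 12.5-fold difference with a log2 fold change of 3.65 ± 0.45 (SE). Cntnap1's log2 fold change was 4.39 without untreated mouse 3 and 3.35 without untreated mouse 2.

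Cfap74 encodes a protein of the central apparatus of motile cilia and flagella. The gene (Entrez 544678) lies at 155392099 to 155466823 on the plus strand of chromosome 4. Cfap74 was at 0.939, 0.693 and 1.60 CPM in the untreated mice and at 28.7, 25.7 and 13.5 CPM in the Dox mice, where mouse 3 was the low one. Its mean was 1.08 ± 0.467 CPM untreated and 22.6 ± 8.07 CPM with Dox (SD, n = 3), 21.0-fold higher, with a log2 fold change of 4.40 ± 0.42 (SE).

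Zfp831 encodes a C2H2 zinc finger protein. The gene (Entrez 100043757) lies at 174598682 to 174710832 on the plus strand of chromosome 2. Zfp831 stood at 2.41, 1.63 and 4.42 CPM in the untreated mice and at 32.5, 23.7 and 25.9 CPM in the Dox mice. The Dox mice were close together relative to the gap between groups. The mean was 2.82 ± 1.44 CPM untreated and 27.4 ± 4.62 CPM with Dox (SD, n = 3), a ratio of 9.70 and a log2 fold change of 3.28 ± 0.35 (SE).

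**Figure D1:**
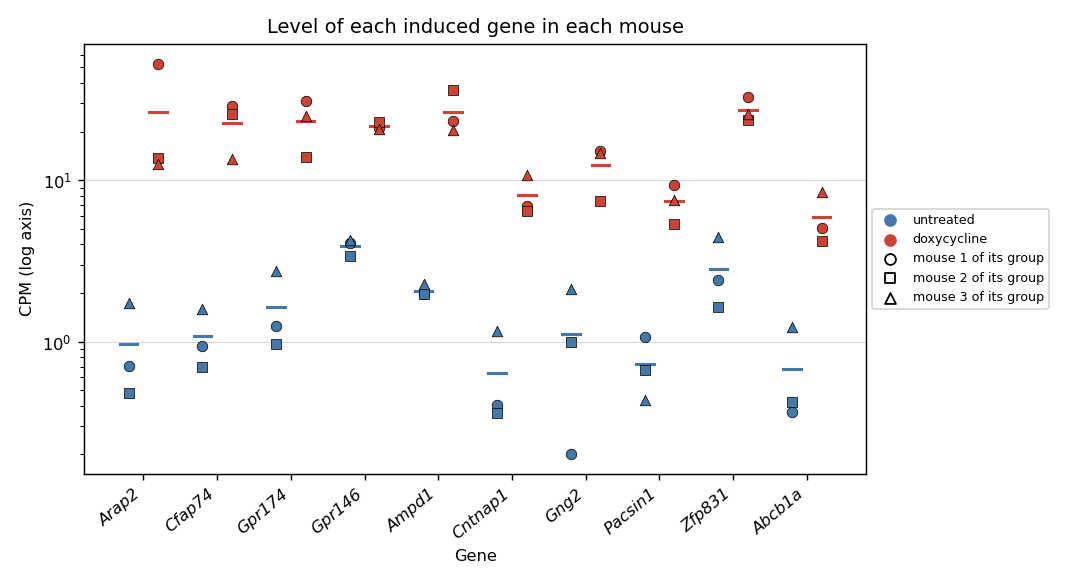
CPM of each of the 10 genes in every mouse on a log axis, with untreated and Dox mice side by side and a bar at each group mean. The groups do not overlap for any of the 10 genes, Arap2 has a single high Dox mouse at 52.8 CPM, and Gng2 has the widest untreated range.

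The order of levels between genes was read per length, as reads per kilobase of counted exon, scaled for depth (RPKM). In untreated cells the means ran from 0.120 ± 0.0844 RPKM for Cntnap1 to 0.928 ± 0.107 for Gpr146 (SD, n = 3), which are percentiles 2.98 and 16.6 among tested genes. Gpr146 and Ampd1, the latter at 0.882 ± 0.0726 RPKM, overlapped each other and stood above all the others in every untreated mouse. The other 8 genes lay between 0.120 and 0.305 RPKM with overlapping mice.

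With Dox the order per length was different. Ampd1 led at 11.4 ± 3.57 RPKM, with its lowest mouse at 8.78 RPKM above every mouse of the other 9 genes. Gpr146 at 5.12 ± 0.273, Cfap74 at 4.84 ± 1.73, Gpr174 at 4.33 ± 1.61, Arap2 at 3.57 ± 3.11 and Gng2 at 3.25 ± 1.14 RPKM followed, and neighbours in this order did not differ beyond their spread. Zfp831 at 2.79 ± 0.471, Pacsin1 at 1.73 ± 0.460, Cntnap1 at 1.50 ± 0.450 and Abcb1a at 1.19 ± 0.457 RPKM came last, and the mice of Zfp831 and Pacsin1 did not overlap. Only Ampd1, at percentile 51.6, passed the middle of all tested genes, and Abcb1a was at percentile 18.2, so with Dox these were genes of low to medium RNA level.

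**Figure D2:**
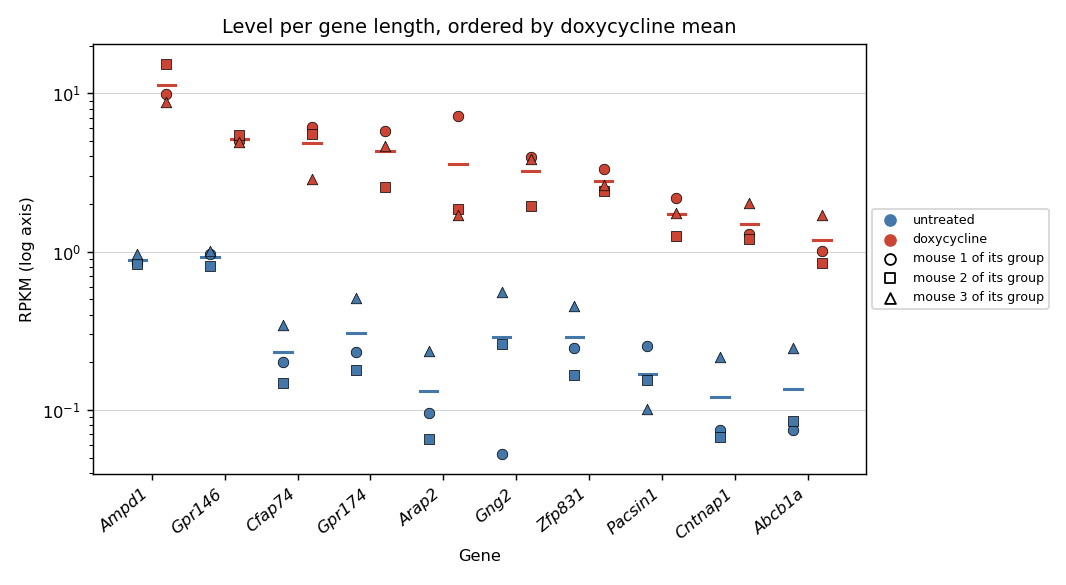
RPKM of the 10 genes on a log axis, ordered by Dox mean, with 1 symbol per mouse number and a bar at each group mean. Ampd1 stands above the rest with Dox at a mean of 11.4 RPKM, and Abcb1a is lowest at 1.19 RPKM.

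The SD of log2 CPM between mice had a median over the 10 genes of 0.73 in untreated mice and of 0.48 in Dox mice. Over all tested genes the medians were 0.11 and 0.14. The SD was larger in untreated mice for 7 of the 10 genes and for 41.2% of all tested genes. The 10 genes had 6 to 133 counts per untreated mouse and 171 to 1795 per Dox mouse. How much of these differences in SD comes with the lower counts was not tested. Untreated mouse 3 held the highest untreated value for 9 of the 10 genes, whereas 36.8% of all tested genes were highest there. The summed level of the 10 genes was 13.4, 11.6 and 22.0 CPM in untreated mice 1 to 3 and 225.6, 159.4 and 159.8 CPM in Dox mice 1 to 3. Dox mouse 1 was highest for 6 of the 10, against 30.6% of all tested genes.

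The 2 sequencing runs of each RNA gave similar values. Of 60 pairs of a gene and a mouse, 3 had an exact binomial p under 0.05 between runs, namely Gpr174 and Gpr146 in Dox mouse 2 and Gng2 in untreated mouse 3. In the 34 pairs with at least 100 counts, the ratio of the runs lay between 0.805 and 1.39.

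Markers of other cell types were read beside these values. T-lineage markers, 14 of 14 tested, summed to 11247 to 12078 CPM in untreated and 12436 to 13455 CPM in Dox mice. Of these, 8 rose, among them Cd5 by 1.49 and Cd2 by 1.16 on the log2 scale, and 3 fell, namely Cd3g by 0.45, Notch1 by 1.12 and Ptcra by 2.17. Cd3d, Cd3e and Lck were not called, and Cd3e, a chain of the T-cell receptor complex, lay between 306 and 362 CPM in all mice. The B-cell list (5 of 9 tested, 1 called higher) summed to 1.96 to 2.41 CPM untreated and 2.69 to 3.68 CPM with Dox, with Pax5 at 0 in every mouse. The erythroid list (9 of 9 matched genes tested, 4 called higher) summed to 17.3, 9.94 and 69.6 CPM in untreated mice 1 to 3 and to 106 to 143 CPM with Dox. Untreated mouse 3, highest for 9 of the 10 genes, was the highest untreated mouse on the erythroid, T-lineage and regulatory T-cell lists. The same mouse was the lowest untreated mouse on the B-cell, myeloid, natural killer, dendritic, and stroma and endothelium lists. The myeloid list (10 of 12 tested, 4 called higher and 4 lower) went from 27.2 to 48.0 CPM untreated to 70.8 to 92.2 CPM with Dox. Most of that rise was Itgam, from 9.86 ± 0.820 to 44.1 ± 5.52 CPM, and Csf1r, from 4.51 ± 1.47 to 15.4 ± 5.03 CPM (SD, n = 3). Also called higher were Adgre1, from 1.51 ± 0.859 to 5.68 ± 0.597 CPM, and Cd68, from 3.35 ± 0.241 to 6.29 ± 0.536 CPM. The 4 called lower were Mpo, S100a8, S100a9 and Ccr2. The part of these cell types in the values of the 10 genes was not tested.

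The remaining lists were read the same way. The natural killer list (4 of 9 tested, 2 called higher and 1 lower) summed to 813 to 1414 CPM untreated and 331 to 931 CPM with Dox, nearly all of it the granzyme gene Gzma, and its defining receptor Ncr1 did not exceed 0.0301 CPM in any mouse. The dendritic list (2 of 8 tested, 1 called higher) lay at 0.898 to 1.33 CPM untreated and 2.32 to 2.90 CPM with Dox. The platelet list (3 of 9 tested, 1 called higher) lay at 6.96 to 11.9 and 17.8 to 35.1 CPM, mostly Itgb3. The stroma and endothelium list (4 of 10 tested) lay at 342 to 413 CPM untreated and 360 to 366 CPM with Dox, a sum over opposite changes. Pdgfrb fell from 136 ± 30.3 to 17.9 ± 5.32 CPM (SD, n = 3), by 2.92 on the log2 scale, while Pecam1 rose from 134 ± 15.6 to 206 ± 6.33 CPM, Col1a2 from 108 ± 6.32 to 130.5 ± 12.4 CPM and Col1a1 from 4.38 ± 0.549 to 8.55 ± 0.489 CPM. The regulatory T-cell list (5 of 6 tested, 1 called higher and 1 lower) lay at 482 to 726 and 361 to 855 CPM, mostly Il2ra and Nrp1, with its defining factor Foxp3 at no more than 0.265 CPM.

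The families and pathways around the 10 genes moved in both directions. Of 184 relatives listed by family or pathway, 133 were tested, and 55 rose, 31 fell and 47 were not called, and their log2 fold changes had a median of 0.18. The median over all tested genes was -0.0037, with 24.8% called higher and 25.2% lower. A low gene can pass the filter only through the group where it is high, so the counts are also given for genes with a mean of at least 5 CPM over all mice. There 40 relatives rose (39.6%) and 27 fell (26.7%), against 24.7% and 28.3% of the 9907 such genes.

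Relatives of Gpr174, listed as lymphocyte G protein-coupled receptors, had the largest share of genes that rose among the 8 lists. Of 19 tested, 14 rose and 2 fell, and the median was 1.00 on the log2 scale. At a mean of at least 5 CPM, 6 of 11 rose and 2 fell. The lysophosphatidylserine receptor P2ry10 was at 47.5, 47.5 and 44.2 CPM untreated and 82.7, 84.1 and 77.5 CPM with Dox, a log2 fold change of 0.81 ± 0.07 (SE, edgeR adjusted p = 0.00011). Its copy P2ry10b rose by 1.21 ± 0.12 (adjusted p = 0.0002) and the related Gpr34 by 1.92 ± 0.48 (adjusted p = 0.01), the latter from only 0.118 ± 0.0506 to 0.464 ± 0.166 CPM (SD, n = 3). The lysophosphatidic acid receptor Lpar6 rose by 1.45 and the purinergic receptor P2ry13 by 2.35 on the log2 scale. Gper1 did not pass the filter, with 0.0920 to 0.206 CPM in Dox mice. Among all relatives, S1pr1, the receptor that guides T-cell egress, at 3.77, and P2ry12 at 3.03 had log2 fold changes above that of Gpr146. The number called lower in this list was 1 without any 1 untreated mouse or without Dox mouse 1.

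Relatives of Gng2, the subunits of heterotrimeric G proteins, moved in both directions. Of 20 tested, 9 rose and 4 fell, and the median log2 fold change was 0.10. Gnai2, the main inhibitory alpha subunit of lymphocytes, rose from 475 ± 6.90 to 641 ± 7.76 CPM (SD, n = 3), by 0.43 on the log2 scale (edgeR adjusted p = 0.00064). Gnal rose by 1.05, Gna15 by 1.61 and the beta subunit gene Gnb4 by 0.94 on the log2 scale. Without untreated mouse 2 these counts were 5 higher and 1 lower, and 2 fell without untreated mouse 1, Dox mouse 1 or Dox mouse 2.

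Relatives of Arap2, the Arf GAP family with its GTPases, included 10 that rose and 2 that fell of 24 tested, at a median of 0.18 on the log2 scale. The nearest paralogs of Arap2 were not called. Arap1 was abundant at 123 ± 6.88 CPM untreated and 115 ± 3.93 CPM with Dox (SD, n = 3; log2 fold change -0.10, edgeR adjusted p = 0.24). Arap3 was near the limit at 0.453 ± 0.138 and 0.286 ± 0.219 CPM (log2 fold change -0.61, adjusted p = 0.36), and without Dox mouse 2 it was called lower at -1.41 (adjusted p = 0.0468). Agap2 rose by 0.92 (adjusted p = 0.00018), from 50.7, 50.9 and 62.3 to 107, 102 and 102 CPM, while Agap1 fell by 1.78. Smap2 and Acap3 rose by 0.48 and 0.46. Without Dox mouse 2, 4 of this list fell.

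Relatives of Pacsin1 in membrane bending and scission gave 7 higher and 3 lower of 17 tested, at a median of 0.29 on the log2 scale. Its paralogs were not called. Pacsin2 was at 112 ± 3.05 and 103 ± 7.24 CPM (SD, n = 3; edgeR adjusted p = 0.21) and Pacsin3 at 1.18 ± 0.321 and 0.974 ± 0.0985 CPM (adjusted p = 0.44). The dynamin gene Dnm2 rose from 159 ± 6.76 to 216 ± 10.3 CPM, by 0.44 on the log2 scale, whereas the neuronal dynamin gene Dnm1 fell from 1.39 ± 0.407 to 0.180 ± 0.0259 CPM, by 2.93. The F-BAR gene Trip10 fell by 1.23 and Snx18 by 0.64 on the log2 scale.

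Relatives of Abcb1a among the ABC transporters gave 10 higher and 4 lower of 22 tested, at a median of 0.34 on the log2 scale. The near-identical Abcb1b was at 4.59, 6.99 and 11.2 CPM untreated and at 18.0, 12.9 and 22.5 CPM with Dox, a log2 fold change of 1.23 ± 0.35 (SE, edgeR adjusted p = 0.028). In both copies untreated mouse 3 and Dox mouse 3 were highest in their groups. Abcb1b lost its call without untreated mouse 2 (adjusted p = 0.104), Dox mouse 1 (0.069) or Dox mouse 3 (0.0711), and with no filter on low counts (0.0694). Abcb4, a phospholipid exporter next to these genes, rose by 1.06 ± 0.27 (adjusted p = 0.012). Abcg2, another drug exporter, fell from 9.06 ± 2.31 to 1.31 ± 0.114 CPM, by 2.79 on the log2 scale (adjusted p = 9.4e-05). Abcb6 fell by 0.80, and Abca7 and Abcc10 rose by 0.69 and 0.77. Without Dox mouse 2, 2 of this list fell.

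Relatives of Ampd1 in purine salvage and interconversion mostly fell. Of 17 tested, 13 fell and 1 rose, at a median of -0.34 on the log2 scale, and all 17 had a mean of at least 5 CPM. Its paralog Ampd2 was at 123, 128 and 119.9 CPM untreated and 84.5, 83.8 and 93.0 CPM with Dox, lower by 0.51 ± 0.07 on the log2 scale (edgeR adjusted p = 0.00068). Ampd3 was the one that rose, from 18.7 ± 0.568 to 24.2 ± 2.04 CPM (adjusted p = 0.011). Adssl1, the muscle-type adenylosuccinate synthase of the same cycle, fell by 1.73, Adk by 1.07, Impdh2 by 0.69 and Gmpr by 2.05 on the log2 scale. Without untreated mouse 2, 8 of the list fell and Ampd3 lost its call (adjusted p = 0.0526).

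Relatives of Cfap74 in cilia and flagella were mostly too low to test. Of 29 listed, 12 were tested, of which 4 rose and 2 fell. Their median was 0.19 on the log2 scale. The axonemal dynein gene Dnah8 rose from 90.6 ± 4.51 to 213 ± 30.7 CPM (SD, n = 3), by 1.23 (edgeR adjusted p = 0.0001). Rfx3, a transcription factor of ciliary genes, rose by 0.84, and Cfap54 by 1.62 from 0.408 ± 0.0370 CPM, while Dnah1 fell by 1.59 from 0.818 ± 0.237 CPM. Cfap46, Cfap52, Cfap58, Cfap69, Cfap206 and Cfap221 had 0 counts in all mice. With untreated mouse 1, untreated mouse 2, Dox mouse 1 or Dox mouse 2 left out, 1 gene of the list fell.

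Relatives of Cntnap1 at the paranode and its paralogs were nearly absent, with 2 of 15 tested. Cntnap2 fell from 1.84 ± 0.288 to 0.763 ± 0.107 CPM (SD, n = 3), by 1.27 on the log2 scale (edgeR adjusted p = 0.0037), opposite to Cntnap1. Epb41l3, a membrane skeleton protein, was at 0.657 ± 0.303 and 1.28 ± 0.233 CPM and was not called (adjusted p = 0.056), but was called by limma-voom (adjusted p = 0.0434) and by edgeR without untreated mouse 2 (adjusted p = 0.0374).

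**Figure D3:**
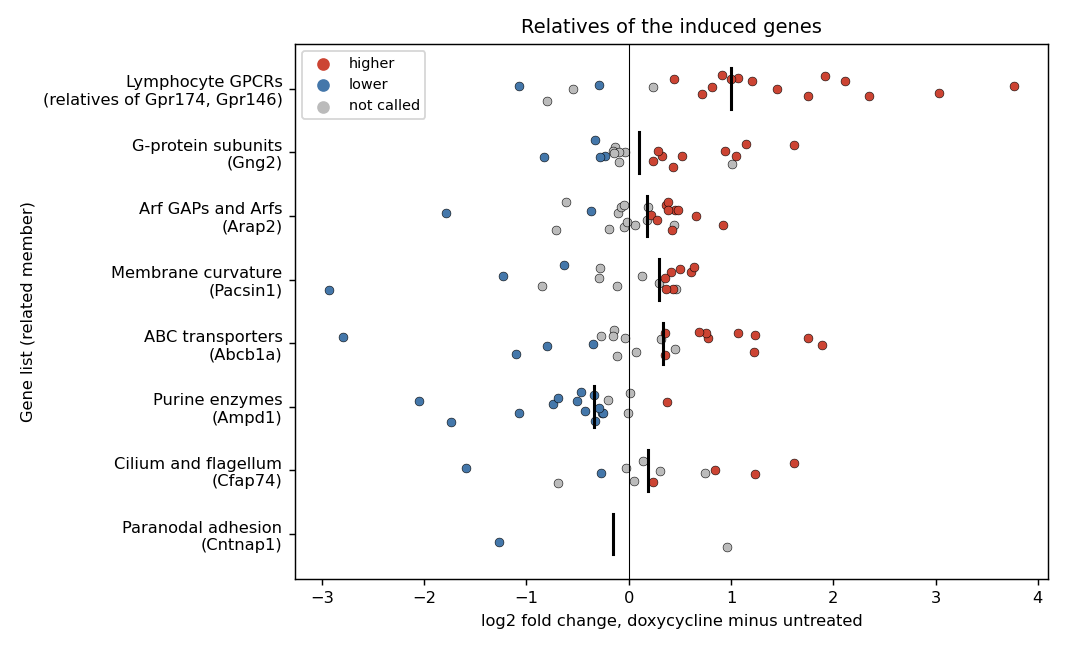
Log2 fold change of Dox against untreated for each tested relative, in rows by family, coloured by call, with a bar at each list's median. The lymphocyte receptor row lies mostly to the right with a median of 1.00, the purine row to the left with a median of -0.34, and the other rows lie on both sides of 0.

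Genomic neighbours were examined because they are set by position and not by value. The nearest tested gene on each side of each of the 10 genes, leaving out genes that overlap them in RefSeq, gave 20 genes. Of these, 9 rose (45.0%, against 24.8% of all tested genes), 0 fell and 11 were not called by edgeR, and the median of their log2 fold changes was 0.37. By DESeq2 and by limma-voom 0 fell as well, and 0 were lower at an unadjusted edgeR p under 0.05. Leaving out single mice, 7 to 9 of the 20 rose.

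Both neighbours rose at Ampd1, at Cntnap1 and at Abcb1a. At Ampd1, Nras lay 5.98 kb before it and rose by 0.44 ± 0.08 (SE), and Dennd2c lay 2.93 kb after it and rose by 0.93 ± 0.20. At Cntnap1, Ezh1, a Polycomb histone methyltransferase gene 0.391 kb after it, rose by 0.68 ± 0.10, from 22.3 ± 2.33 to 35.9 ± 2.24 CPM (SD, n = 3). Plekhh3, 3.24 kb before Cntnap1 in RefSeq, rose by 1.27 ± 0.38 (edgeR adjusted p = 0.025). It lost its call without untreated mouse 1 or 2 or Dox mouse 1 or 3, at edgeR adjusted p from 0.0532 to 0.0833. In GENCODE, Cntnap1 starts at 101170523, before the RefSeq end of Plekhh3 at 101171378. Exons of this pair were not compared. Plekhh3 was highest in mouse 3 of each group, as was Cntnap1. At Abcb1a, Slc25a40, 112 kb before it, rose by 0.91 ± 0.14, and Abcb1b, 49.6 kb after it, is described above.

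At 3 other genes 1 neighbour rose. Prkcz, an atypical protein kinase C gene 30.7 kb before Cfap74, rose by 2.01 ± 0.43 from 0.799 ± 0.376 to 3.24 ± 1.24 CPM (SD, n = 3). P2ry10b lay 82.2 kb before Gpr174 on chromosome X, and on the other side Itm2a was not called (adjusted p = 0.081) except without untreated mouse 1 (adjusted p = 0.0101). Rell1, 1123 kb after Arap2, rose by 0.86 ± 0.11. Neither neighbour of Gpr146, Gng2, Pacsin1 or Zfp831 was called.

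**Figure D4:**
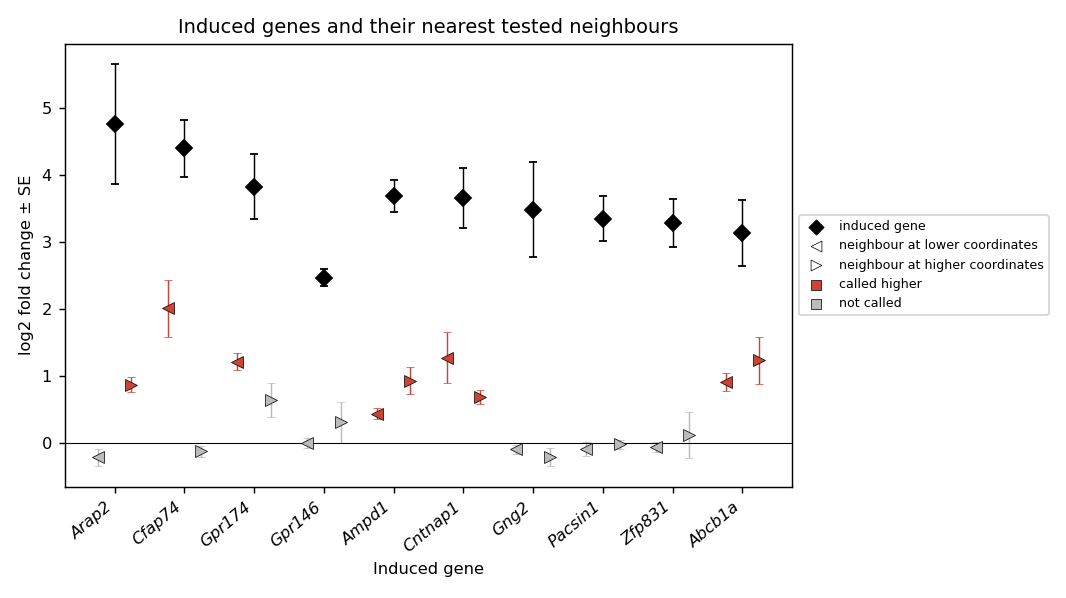
Log2 fold change of the nearest tested gene before and after each of the 10 genes, beside the value of the gene itself, with error bars of 1 SE. Of the 20 neighbours 9 are called higher, and each neighbour's log2 fold change is smaller than that of the gene it flanks.

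Genes of the count table that overlap 4 of the 10 in RefSeq, on the opposite strand, were read separately. The reason is that whether the counting used strand is not given in the sources used here. Without strand, the reads of overlapping exons cannot be told apart. Shared exonic bases were counted with GENCODE vM21 exons. There Abcb1a starts at 8660077, past the end of Rundc3b at 8623084, so no shared exon could be found. Exons of the longer RefSeq extent of Abcb1a, which Rundc3b does overlap, were not compared. Rundc3b rose from 8.70 ± 6.03 to 39.0 ± 3.71 CPM (SD, n = 3), a log2 fold change of 2.16 ± 0.55 (SE, edgeR adjusted p = 0.024). That call was lost without untreated mouse 2 (adjusted p = 0.101), Dox mouse 1 (0.0501) or Dox mouse 2 (0.071), and with no filter (0.0595). Untreated mouse 3 was the highest untreated mouse for Rundc3b as for Abcb1a. 3110082I17Rik, which overlaps Gpr146 without a shared exonic base, fell from 29.5 ± 1.56 to 14.8 ± 2.99 CPM, opposite to Gpr146. Ccr10 beside the start of Cntnap1 shares 0 exonic bases with it and had 3 counts over the untreated mice and 65 over the Dox mice. The noncoding 5830444B04Rik shares 453 exonic bases with Cfap74 and had 5 counts untreated and 115 with Dox. Gabrd, which overlaps Cfap74 only in the RefSeq extent, had 0 counts untreated and 24 with Dox. In GENCODE, Cfap74 starts at 155409190, past the end of Gabrd at 155398098, so shared exons could not be found there either.

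Likeness was measured as the Pearson correlation of log2 CPM across the 6 mice after the group means were removed. The mean Dox response therefore does not enter, but any differences between Dox mice in the size of that response remain. Likeness so measured is a description over few mice that share libraries and depth. Among the 45 pairs of the 10 genes, Cntnap1 and Abcb1a were most alike (r = 0.98), followed by Gpr174 and Zfp831 (r = 0.90) and Arap2 and Zfp831 (r = 0.81), and Ampd1 and Pacsin1 were least alike (r = -0.61). Over 11655 other genes, each of the 10 had between 4 and 25 with r over 0.99, so the nearest genes below are a few among several. Cntnap1, with 12 such genes, was most like Ikzf3 (r = 0.999) and Smad3 (r = 0.998). Zfp831 was most like P2rx7 (r = 0.995), which was at 33.7, 29.4 and 42.0 CPM untreated and 225, 198 and 212 CPM with Dox. Arap2 was most like Zfp809 and Rab5b (r = 0.996 each), and Ampd1 most like Cox7a2l and Npc2. The nearest genes were Tmem45a and Hnrnpll for Cfap74, Dbp and E130311K13Rik for Gpr174, Tbrg3 and Btd for Gpr146, Gorasp1 and Naa40 for Gng2, Bag4 and Trmt11 for Pacsin1, and Atf6b and Wbp2 for Abcb1a.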

How the data were processed

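RNA-seq counts per gene were deposited by the authors for 12 libraries, 2 runs of each of 6 mice. The submitters' processing notes name CASAVA 1.8.1, featureCounts and mm10. For alignment, annotation, strand and multiply mapped reads, the settings were not given in the sources used here. The deposited counts are whole and unnormalized, and the series table and the sample files held equal values for 27179 genes. Runs of 1 RNA are technical repeats and were summed per mouse. Symbols were matched to 25275 of 27179 Entrez IDs (93.0%).

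Genes were filtered with filterByExpr, normalized by TMM and fitted with edgeR 4.0.16 (R 4.3.3), robust quasi-likelihood, with Benjamini-Hochberg adjustment over 13134 genes at 0.05 and no covariate. The biological coefficient of variation was 13.9%, and the code was tested on simulated data. Alternatives used DESeq2 1.42.0, limma-voom 3.58.1, other scalings and filters, single runs, a replicate block and left-out mice. RPKM used the deposited gene lengths. CPM is the count over the TMM-scaled total.

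The 10 genes, their relatives, markers and motifs were chosen with earlier results of these data known. Text names the 10 genes, their closest relatives, up to 4 tested genes with the smallest p of each relatives list, the nearest neighbours and the 2 most alike genes. S1pr1, P2ry12, the overlapping genes and the single markers printed were named after their values were seen. P-values measure the spread between mice carrying 1 leukemia.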

Additional observations from a re-analysis of the deposited data

How the results depend on the processing

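For the 10 genes, 190 alternative values of the log2 fold change were computed and 0 changed sign, which their choice for steep rises fixes. In 3, for Gpr174, Cntnap1 and Abcb1a with untreated mouse 3 and doxycycline mouse 2 both left out, an alternative chosen after seeing the data, the value moved by more than the SD of log2 CPM between mice. Over all genes, leaving out 1 mouse gave 2417 to 3136 higher and 2452 to 3162 lower. The same-numbered mice are not paired by the labels. Their deviations from the group means correlated at 0.156, -0.0116 and -0.103, and those of differently numbered mice at -0.191 to 0.168. With 3 mice per group, whose deviations are tied to each other, these correlations cannot decide whether mice were paired. With the replicate block 3103 genes were higher and 3156 lower, relatives were 50 higher and 32 lower, and 9 neighbours were higher. Relatives were 42 to 52 higher and 20 to 32 lower when 1 mouse was left out, the 20 being without untreated mouse 2, and neighbours were 7 to 9 higher and 0 lower. With the window extended past the start, the Runx core was in windows of 2 genes rather than 1 and the E-box in windows of 3 rather than 2. Of 1016 values of 61 other named genes, 998 kept their call and direction, 13 lost the call, 5 gained it and 0 changed sign. Between 6 and 133 counts in each untreated mouse limit the precision of the untreated levels.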
